A study of Mus musculus with 9 samples.

Results

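Newborn mouse pups that lack the transferrin receptor Tfr1 in the intestinal epithelium were set against pups that carry the same deletion and express, from the ROSA26 locus, a Tfr1 of altered sequence, R654A. In the added receptor alanine replaces an arginine, and it binds transferrin weakly. The comparison took in 6 of the 9 arrays of the series, 3 labelled rescue (Tfr1 IEC-KO;ROSA26 Tfr1R654A/+) and 3 labelled knockout (Tfr1 IEC-KO), and 17567 of 18193 measured genes. The members were all genes read by a probe set with a single gene symbol, with the 626 genes on chromosomes X and Y left out. A further 3 arrays came from control pups with floxed alleles and no deletion (Tfr1fl/fl), and they entered the fit as the third group. All pups were untreated and of postnatal day 0. Cells were shaken off small intestine and proximal colon after 30 min in 2 mM EDTA and passed a 70 µm mesh, with no sort named. The labels give neither the driver of the deletion, nor the sex of the pups, nor how many pups an array holds, so p-values measure the spread between arrays, which may be technical.

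Tfr1, encoded by Tfrc, binds iron-loaded transferrin at the cell surface and carries it into endosomes, where the iron is released. Cells spend that iron on haem, on iron-sulfur clusters and on the respiratory chain that depends on both. In the gut of suckling animals the epithelium also absorbs milk fat and whole proteins, and after injury it can take up a gene programme of fetal type, marked by annexins and by targets of the YAP and TEAD factors. The question put to the data was which of these pathways differ between epithelium with the added receptor and epithelium without it.

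The arrays of the compared groups were not equally uniform, and this bears on every count given here. Correlations between arrays of a group were 0.994 to 0.996 in control, 0.986 to 0.990 in rescue and 0.951 to 0.985 in knockout. The median SD of a gene was 0.104 in control, 0.140 in rescue and 0.225 in knockout (log2, n = 3). Knockout array 3 stood apart from knockout arrays 1 and 2: on the first principal component, with 56.5% of the variance, the knockout arrays lay at 71.6, 48.8 and 7.22 and the rescue arrays between -15.2 and -0.27. Fibroblast markers also set knockout arrays 1 and 2 apart, with medians 3.70, 3.06 and 0.26 over the control mean in knockout arrays 1, 2 and 3 and 0.81, 0.50 and 0.39 over it in rescue arrays 1, 2 and 3. The female-specific Xist read 12.02 to 12.75 in knockout and 6.45 to 6.83 in rescue arrays. Eif2s3y, a gene of the Y chromosome, read 2.34 to 2.82 and 9.36 to 9.70. Sex and genotype therefore cannot be told apart in this comparison. In tissue of this kind, fewer cells of a type and less RNA per cell cannot be told apart either.

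Transcript of the added receptor was present in every rescue array. Probe set 1422966_a_at of Tfrc read 5.92, 6.14 and 5.57 in the knockout arrays (log2 RMA value) and 10.90, 10.91 and 10.74 in the rescue arrays. All rescue arrays lay far above all knockout arrays, by 4.98 ± 0.15 (SE, 31.5-fold, limma's adjusted p = 7.08e-07 over 45101 probe sets). A second probe set of the gene, 1422967_a_at, read 4.36, 4.46 and 4.09 in knockout against 9.07, 8.78 and 8.65 in rescue (at least 23.1-fold). The 3 control probe sets that the array holds for this transcript were higher in rescue by 3.65, 4.21 and 5.70. Probe set 1452661_at behaved otherwise. It is the brightest of the gene and represents it in the tables, and it read 10.76, 11.16 and 9.07 in knockout and 10.91, 10.22 and 11.11 in rescue, so that the groups overlapped (0.42 ± 0.51, adjusted p = 0.748). Control arrays read 6.06 to 6.29 on the first of these probe sets, near the knockout level. Knockout differed from control on none of the 6 (adjusted p = 0.144 to 0.977), so they do not check the deletion, and none reads the R654A change.

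**Figure D1:**
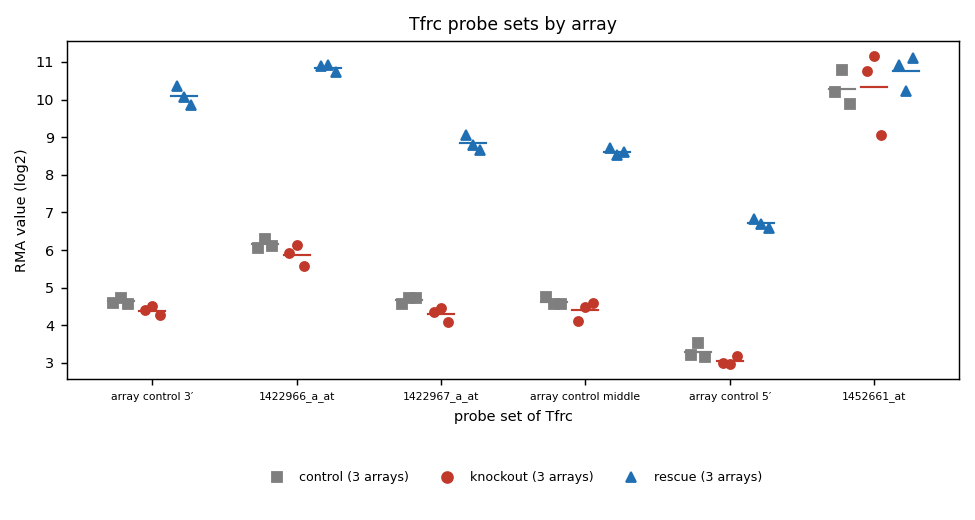
RMA values (log2, vertical axis) of the 6 probe sets of Tfrc in each of the 9 arrays; points are arrays and bars are group means of 3. On 5 probe sets the rescue arrays lie above all others, with means 3.65 to 5.70 over knockout, while on 1452661_at the groups overlap.

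Rescue epithelium differed from knockout epithelium by genes that rose and genes that fell, in similar numbers. Of the 17567 genes 406 passed limma's test at an adjusted p of 0.05 (2.31%), 218 higher in rescue (1.24%) and 188 lower (1.07%). Changes of at least 2-fold were found in 77 of the genes that rose and 122 of those that fell. All 406 were separated, meaning that every rescue array lay on the same side of every knockout array; 18.1% of all genes were, 10.6% higher and 7.5% lower. The median change of all genes was 0.04. The shares called and separated over all genes are the background for the list counts that follow. Those lists were chosen with earlier results of these data known, so the counts describe them and do not test them. The spread in this test is shared by the 3 groups, and with the 6 compared arrays alone 25 genes passed, 5 higher and 20 lower. Leaving out single arrays gave counts between 99 without rescue array 3 and 2688 without knockout array 3, and 76 of the 406 genes passed in all 9 of these leave-one-out fits.

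The largest rises included genes of cell polarity, metabolism and transport. Where the weaker group's mean falls among the dimmest 40% of its genes, the fold is a lower bound and is written as at least that value. Sapcd2, a regulator of cell polarity and spindle orientation, read 6.34, 6.39 and 7.17 in knockout and 8.63, 9.38 and 9.80 in rescue arrays, a rise of 2.63 ± 0.31 (6.21-fold, adjusted p = 0.00712). Every rescue array was above every knockout array and below the control arrays, which read 10.40 to 10.53. Acvr1c, a type I receptor for activin-like ligands, read 4.44, 4.70 and 4.95 in knockout against 6.75, 6.69 and 6.71 in rescue (2.02 ± 0.13, at least 4.05-fold, adjusted p = 5.43e-04). Its rescue arrays lay close together, and it had the smallest adjusted p of these 12 genes. Kif12, a kinesin, rose at least 5.22-fold, from 5.48, 6.10 and 5.74 to 7.90, 7.99 and 8.58 (adjusted p = 0.00226). Fbp1, the fructose bisphosphatase of gluconeogenesis, rose by 2.51 ± 0.44, from 9.36, 8.59 and 10.58 to 11.78, 11.76 and 12.52, and the vitamin C transporter Slc23a1 rose by 1.88 ± 0.37. Other large rises were those of the lipid transporter gene Abca13 (5.23-fold), the NADPH oxidase Nox4 (4.77-fold), the aldo-keto reductase Akr1c14 (at least 4.26-fold), the glutathione transferase Gstp3 (3.98-fold), both of families with close copies, and Lrrn1 (3.87-fold), whose other probe sets changed by 0.13 each. Itln1, a lectin that binds microbial sugars, and the pentraxin Mptx1 completed the group at 5.17-fold and 4.25-fold. For these last genes the rescue arrays reached 8.39 to 10.09 and 11.29 to 12.62, while control arrays read 8.14 to 8.44 and 10.72 to 11.33. Of the 12 genes 4 passed in every leave-one-out fit (Sapcd2, Kif12, Acvr1c and Lrrn1), and the highest adjusted p was 0.15, for Slc23a1 without rescue array 3.

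The largest falls included genes of the matrix, of lipid handling and of antimicrobial defence. Angptl4, a secreted inhibitor of lipoprotein lipase, read 9.94, 11.54 and 11.94 in knockout and 6.93, 7.33 and 7.36 in rescue, whose range overlapped that of control, 7.19 to 7.90. It fell by 3.94 with an SE of 0.46 (15.3-fold, adjusted p = 0.00712), and a dimmer probe set of the gene changed by -1.05. Plat, the tissue plasminogen activator, read 10.22, 8.78 and 9.30 in knockout and 5.98, 5.95 and 5.48 in rescue, at least 12.3-fold lower (adjusted p = 0.00241), although its other probe set changed by only -0.29. Fn1, which encodes fibronectin, read 10.72, 10.85 and 11.59 in knockout and 7.97, 7.83 and 7.72 in rescue. It was 9.29-fold lower (adjusted p = 0.00108), and both of its probe sets gave the same size of change, -3.22 and -3.25. Pnliprp2, a lipase related to pancreatic lipase, fell 6.29-fold, the formin Fmnl2 6.26-fold, the surface protein Ly6d 6.17-fold, the membrane-bound signalling protein Basp1 5.74-fold and the efflux pump Abcb1b at least 5.72-fold. Lyz1, a lysozyme, fell 5.90-fold on its brightest probe set. The name of that probe set marks it as open to cross-matching, Lyz2 is a near copy, and the dimmest probe set of Lyz1 changed by -0.23. The matrix-stabilising Itih5, the annexin Anxa10 and Dpysl3 fell 7.33-fold, 7.10-fold and 6.43-fold. These last 3 genes were the ones lost in some leave-one-out fits, where the adjusted p reached 0.175 (Itih5, without rescue array 3), and 9 of the 12 passed in every such fit.

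**Figure D2:**
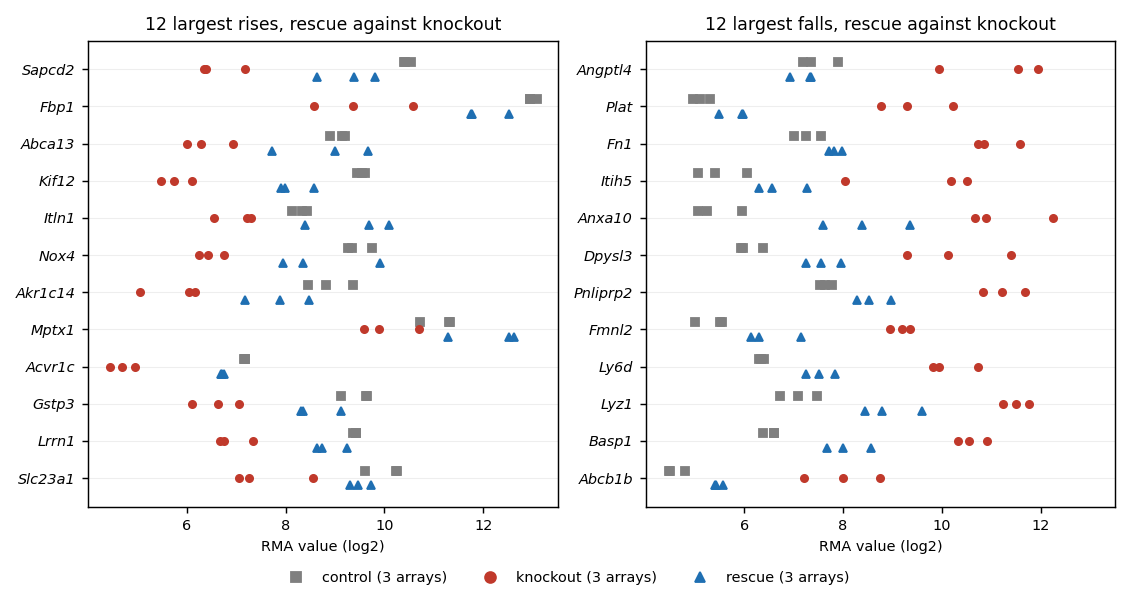
RMA values (log2, horizontal axis) of the 12 largest rises (left) and the 12 largest falls (right) in every array; symbols mark the 3 groups. No rescue array overlaps a knockout array in any row, by the rule that chose the genes, and for Anxa10 the rescue arrays (7.60 to 9.36) lie between the control and knockout arrays.

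Of 28 genes of iron transport, storage and sensing 1 rose and 2 fell, where 2.31% of all genes were called. Tfrc is among the 28 and counts as not called, because its brightest probe set, 1452661_at, represents it. Its other probe sets were higher in rescue by 3.65 to 5.70, as given above. Tfrc counts in the same way in the list of antioxidant and ferroptosis defence. The median change was 0.03, against 0.04 over all genes. Steap2, a reductase of the endosome that converts ferric iron, read 6.26, 6.65 and 6.29 in knockout and 7.01, 7.59 and 7.86 in rescue (1.09 ± 0.21, 2.12-fold, adjusted p = 0.0378). Lactoferrin, the secreted iron-binding protein of Ltf, read 8.97, 8.79 and 8.47 in knockout and 6.86, 6.73 and 6.54 in rescue (4.09-fold lower, adjusted p = 0.00226). Epas1, the subunit of HIF-2 that drives iron absorption genes in enterocytes, fell 2.06-fold, from 10.98, 10.51 and 10.51 to 9.44, 9.79 and 9.65 (adjusted p = 0.0243). Genes of iron absorption that HIF-2 is known to drive gave no call. The importer Slc11a2 read 9.12, 9.83 and 9.47 in knockout and 8.78, 9.48 and 9.90 in rescue (-0.08 ± 0.29), and the exporter Slc40a1 12.73, 12.61 and 12.92 against 12.86, 12.85 and 12.83 (0.09 ± 0.10). Cybrd1, the ferric reductase of the duodenal brush border, read 8.48, 8.77 and 10.07 in knockout and 8.69, 7.68 and 8.62 in rescue, with overlapping groups (-0.78 ± 0.41, adjusted p = 0.343). Ferritin heavy chain, Fth1, read 13.54 to 13.80 in knockout and 13.64 to 13.75 in rescue (0.03 ± 0.10). These 4 genes were chosen for their roles after the values were seen. The ferroxidase Cp (-0.97 ± 0.29, adjusted p = 0.129) and the siderophore-binding Lcn2 (-1.42, adjusted p = 0.148) had lower means in rescue that did not pass. Of the 3 called genes Ltf passed in every leave-one-out fit, and the adjusted p of Steap2 rose to 0.117 without rescue array 3.

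The genes that use iron in mitochondria had small, one-sided differences of which nearly none passed the test. Of 36 nuclear genes for subunits of the respiratory chain 35 had a higher mean in rescue, 25 were separated upward and 0 downward (against 10.6% and 7.5% of all genes), and 1 rose. The median change was 0.26, and 21 of the 36 had an unadjusted p under 0.05, as did 18.9% of all genes. Ndufs8, which holds iron-sulfur clusters in complex I, was the gene that passed: it read 11.41, 11.46 and 11.19 in knockout and 11.89, 11.75 and 12.03 in rescue (0.54 ± 0.11, 1.45-fold, adjusted p = 0.0496), and it passed in 1 of 9 leave-one-out fits (adjusted p up to 0.165). Its neighbours in size were Ndufs1, the largest iron-sulfur subunit, at 10.10, 10.47 and 10.45 against 10.73, 10.83 and 10.94 (adjusted p = 0.0895), and Ndufb5 at 11.55, 11.71 and 11.47 against 11.98, 11.94 and 11.96 (adjusted p = 0.0811). By complex, the median change was 0.36 for the 13 genes of complex I, 0.33 for 4 of complex II, 0.26 for 6 of complex III, 0.14 for 7 of complex IV and cytochrome c and 0.20 for 6 of ATP synthase, which holds no iron. Array by array, the list's median lay at -0.35, -0.21 and -0.26 from the control mean in knockout and at -0.05, -0.08 and 0.04 in rescue, so the groups did not overlap. It was 0.23 when knockout array 3 served as the sole knockout array.

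Iron-sulfur cluster assembly and haem synthesis had 0 calls by limma, with 5 of 21 and 4 of 13 genes at an unadjusted p under 0.05, all higher in rescue, where 18.9% of all genes were under it. Of the assembly genes 19 had a higher mean in rescue and 7 were separated upward, with a median of 0.26; the sulfur donor Nfs1 read 9.16 to 9.22 in knockout and 9.39 to 9.65 in rescue (0.32 ± 0.10, adjusted p = 0.147), and the carrier Glrx5 11.19 to 11.73 and 11.81 to 11.91. Of the haem genes 11 had a higher mean and 3 were separated upward, with a median of 0.23. Alad, which makes porphobilinogen, read 10.10, 10.63 and 10.42 in knockout and 10.76, 10.97 and 10.86 in rescue (0.48 ± 0.14, adjusted p = 0.117), and Fech, which inserts the iron into haem, 9.65 to 9.82 and 9.93 to 10.18 (0.31 ± 0.10, adjusted p = 0.163). For Alas1, the first enzyme of the path, the difference was -0.25 (adjusted p = 0.529). Haem medians per array overlapped between the groups: -0.61, -0.29 and -0.33 in knockout and -0.35, -0.18 and -0.08 in rescue.

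Oxidation genes had higher means in rescue, and a small set of PPAR targets known from fasting fell. Bdh1, which makes the ketone body hydroxybutyrate, rose from 11.61, 11.69 and 11.83 to 12.41, 12.36 and 12.47 (1.63-fold, adjusted p = 0.0113). It was the single call among 18 oxidation genes, at a median of 0.36. Of these 10 were separated upward and 0 downward, against 10.6% and 7.5% of all genes. The whole list of oxidation genes and PPAR targets had a median of 0.29, which was 0.04 with knockout array 3 as the sole knockout array. Hadh, Eci2 and Acaa2, enzymes of the spiral, differed by 0.37, 0.40 and 0.63 and did not pass (adjusted p = 0.0792, 0.117 and 0.10). In the fuel-switch group 3 of 10 genes fell, but 6 had a higher mean in rescue and 4 a lower one, at a median of 0.05. Pdk4, the kinase that closes pyruvate dehydrogenase, read 12.33, 12.28 and 13.03 in knockout and 10.62, 10.25 and 9.44 in rescue (5.44-fold lower, adjusted p = 0.0121). Vnn1, a pantetheinase, fell 4.10-fold, from 11.41, 10.79 and 12.11 to 9.13, 9.34 and 9.73 (adjusted p = 0.0205), and Angptl4 was described above. Ppara itself differed by 0.43 ± 0.32 and did not pass (adjusted p = 0.523). Angptl4 and Pdk4 passed in every leave-one-out fit, while Vnn1 reached an adjusted p of 0.0748 without rescue array 2.

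Peroxisomes, the TCA cycle and glycolysis gave few calls, led by peroxisomal enzymes. In the peroxisome list 2 of 20 genes rose and 9 were separated upward, with a median of 0.38. Over all genes 1.24% rose and 10.6% were separated upward. Pecr, an enoyl-CoA reductase, read 8.08, 7.55 and 8.14 in knockout and 9.27, 9.48 and 9.38 in rescue (2.73-fold, adjusted p = 0.00699), and catalase, Cat, rose 1.91-fold (adjusted p = 0.0396). The list's median hung on the knockout arrays: it was 0.03 with knockout array 3 as the sole knockout array, and 0.04 after adding the fibroblast mean as a covariate. Of 19 genes of the TCA cycle and gluconeogenesis Fbp1 alone rose, and 7 were separated upward at a median of 0.29. Among 16 glycolysis genes the hexokinase Hk1 fell 3.16-fold, from 9.74, 9.83 and 8.63 to 7.63, 7.79 and 7.81 (adjusted p = 0.027, and 0.0945 without rescue array 3), although its other probe set changed by -0.27; the list's median was -0.04. Of 25 genes of the HIF system 1 rose, Hif1an, the asparagine hydroxylase that restrains HIF (1.74-fold, adjusted p = 0.0168), and 1 fell, Epas1. Both were lost in some leave-one-out fits (adjusted p up to 0.0892). The 17 HIF targets had 0 calls by limma (2 at an unadjusted p under 0.05) at a median of -0.29, with the prolyl hydroxylase P4ha1 nearest to one (-0.69 ± 0.15, adjusted p = 0.0509).

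**Figure D3:**
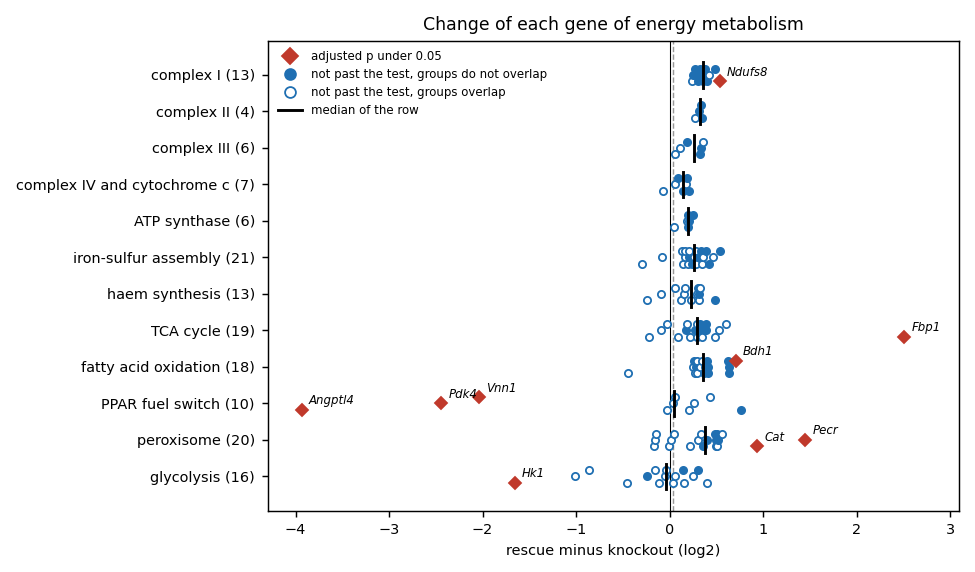
Change of every measured gene of 12 metabolic groups, rescue minus knockout (log2, horizontal axis), with the number of genes in brackets. Red diamonds passed the test, filled blue points are separated and open points are not; the bar is the group's median and the dashed line the median of all genes (0.04). Oxidative groups sit at medians of 0.14 to 0.38, while Angptl4, Pdk4 and Vnn1 lie at -3.94, -2.44 and -2.04.

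Genes of fetal and regenerative epithelium were lower in rescue cells. All 20 measured members had a lower mean in rescue than in knockout, 15 were separated downward (7.5% of all genes were), 7 fell and 0 rose, and the median change was -1.02. The list was chosen with earlier results of these data known, so these counts describe it and are no independent test. Clu, clusterin, a marker of revival stem cells, read between 10.81 and 11.58 in knockout and between 8.52 and 9.37 in rescue (4.65-fold lower, adjusted p = 0.00569), and its 4 probe sets changed by -2.58 to -2.22. Anxa1, an annexin of the regenerating gut, read 11.67, 11.58 and 10.75 in knockout and 9.40, 9.18 and 9.19 in rescue (4.22-fold lower, adjusted p = 0.00569), with -0.66 on its other probe set. Basp1 read 10.32 to 10.92 in knockout and 7.67 to 8.56 in rescue. Rescue arrays of these 3 genes lay nearer to control than to knockout: the differences from control were 0.49, 0.89 and 1.54, and none passed. Anxa3 fell 5.11-fold, Ccn2, a secreted target of YAP, 5.65-fold, Anxa10 7.10-fold and the keratin Krt23 2.02-fold (adjusted p = 0.0121 to 0.0427). Of the 7, Clu, Anxa1 and Basp1 passed in every leave-one-out fit, and Krt23 reached 0.129 without rescue array 3. With the 6 compared arrays alone, Basp1 passed.

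The fetal list stood high in each of the 3 knockout arrays, the one low in fibroblast markers included. The list's median exceeded the control mean by 1.97, 1.36 and 1.47 in knockout arrays 1, 2 and 3, and by 0.41, 0.38 and 0.27 in rescue. With knockout array 3, which is near the rescue arrays in fibroblast markers, as the sole knockout array the median change was -0.91, with 7 of 20 genes lower. With the fibroblast mean as a covariate the median change was -0.92, with 6 lower. Fibroblast medians were 3.70 and 3.06 in knockout arrays 1 and 2 and 0.26 in array 3. The covariate setting therefore leans on array 3 as well and is no separate check. The part of fibroblasts in the fetal list was not tested further.

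**Figure D4:**
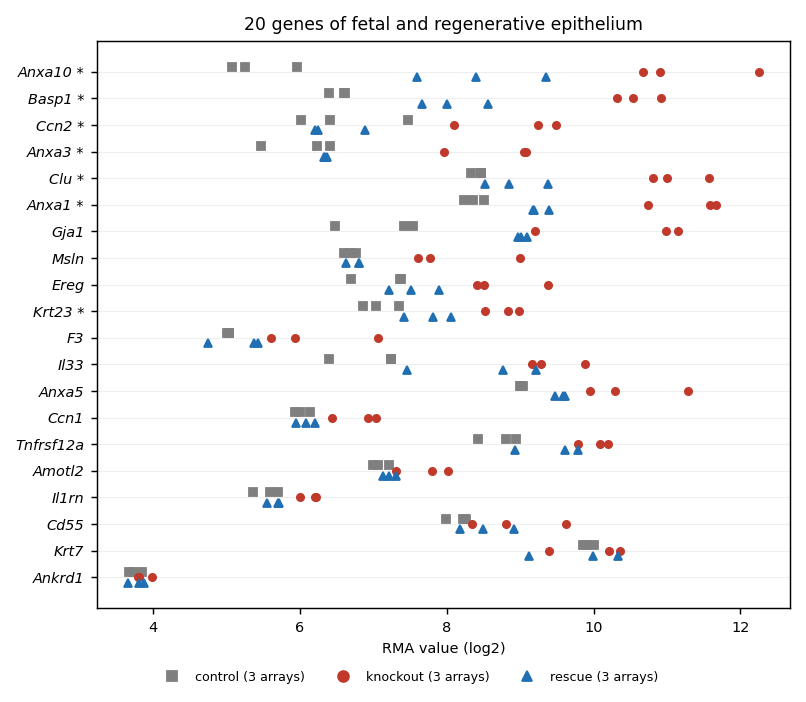
RMA values (log2, horizontal axis) of the 20 genes of fetal and regenerative epithelium in every array, ordered by their change between rescue and knockout; an asterisk marks the 7 genes that passed the test. For Clu the 3 knockout arrays (10.81 to 11.58) lie above all rescue arrays (8.52 to 9.37).

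Promoters of this list are shown because TEAD factors, which act with YAP, bind the letters CATTCC and several members are known targets. In the 250 bases before the start site (RefSeq, GRCm38.p6), CATTCC on either strand, which reads GGAATG on the other, was present in 6 of the 15 fetal genes with a window (40%), in 4 of 26 respiratory chain genes (15.4%) and in 1860 of 13917 genes in all (13.4%). The AP-1 letters TGANTCA were present in 4 of the 15 (26.7%), in 3 of the 26 (11.5%) and in 6.66% of all. The palindromic core of the NRF1 motif, a factor known to drive respiratory genes, was present in 0 of the 15, in 0 of the 26 and in 1.43% of all. A match describes the letters and not a bound site. The windows of Anxa1 (chr19:20390672-20390921, minus strand), Ccn1 (chr3:145649986-145650235, minus strand) and Amotl2 (chr9:102717554-102717803, plus strand) are given 5′ to 3′ with the TEAD letters in capitals. Anxa1 was the only called gene with a match, and the other called genes of the list had none in a window. Ccn1 and Amotl2, both named after their values were seen, were separated downward. The remaining matches were in Il1rn (-0.49, separated downward) and in Ankrd1 (-0.08) and Il33 (-0.96), whose groups overlapped.
Anxa1: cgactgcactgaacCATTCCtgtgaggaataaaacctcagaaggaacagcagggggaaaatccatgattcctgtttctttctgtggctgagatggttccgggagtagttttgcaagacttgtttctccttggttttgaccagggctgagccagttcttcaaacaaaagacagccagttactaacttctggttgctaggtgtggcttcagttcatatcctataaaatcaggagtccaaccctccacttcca
Ccn1: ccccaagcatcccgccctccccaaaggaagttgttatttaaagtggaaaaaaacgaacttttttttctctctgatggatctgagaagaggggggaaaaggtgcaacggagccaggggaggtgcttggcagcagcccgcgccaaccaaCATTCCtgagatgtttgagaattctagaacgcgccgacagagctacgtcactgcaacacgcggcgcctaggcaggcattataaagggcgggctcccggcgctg
Amotl2: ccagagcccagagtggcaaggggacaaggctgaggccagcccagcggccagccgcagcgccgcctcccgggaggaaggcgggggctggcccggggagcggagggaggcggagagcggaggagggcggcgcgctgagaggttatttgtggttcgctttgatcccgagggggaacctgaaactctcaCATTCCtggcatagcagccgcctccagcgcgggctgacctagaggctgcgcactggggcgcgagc
Ccn1, a secreted matrix protein, read 7.04, 6.93 and 6.44 in knockout and 5.94, 6.21 and 6.08 in rescue (-0.73 ± 0.16, adjusted p = 0.0595). Amotl2, an inhibitor of YAP that YAP itself induces, read 8.02, 7.80 and 7.31 against 7.30, 7.21 and 7.13 (-0.50 ± 0.17, adjusted p = 0.171).

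Matrix, adhesion and protease genes were lower in rescue cells where they were called at all. Of 17 plasminogen activators, matrix proteases and inhibitors 3 fell (1.07% of all genes did) and 0 rose, 16 had a lower mean, and the median was -0.67. Beside Plat these were Mmp14, the membrane-bound matrix protease, which read 8.49, 8.18 and 8.27 in knockout and 6.95, 6.86 and 6.78 in rescue (2.73-fold lower, adjusted p = 0.00108), and matrilysin, Mmp7, at 9.53, 9.20 and 9.26 against 7.71, 8.04 and 8.29 (2.50-fold lower, adjusted p = 0.00911). Control arrays of Mmp14, at 6.88 to 6.91, fell inside the range of the rescue arrays. All 3 genes passed in every leave-one-out fit. The list's median was -0.22 with knockout array 3 as the sole knockout array and -0.25 after adding the fibroblast mean as a covariate, and 6 genes were lower in each of these settings. Of 17 integrins and ligands 3 fell, at a median of -0.54: Fn1, the laminin-binding Itga6 (1.77-fold, adjusted p = 0.0144, and up to 0.0605 in leave-one-out fits) and the laminin chain Lamb3 (3.04-fold, adjusted p = 0.0434, and 0.14 without rescue array 3). The median of the integrin list was -0.16 and -0.20 in the same settings, with 5 and 4 genes lower. Tmprss2, a serine protease of the cell surface, had a difference of -1.16 that did not pass (adjusted p = 0.0513).

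Among 27 genes of epithelial-mesenchymal transition 2 fell, Fn1 and Mmp14, and 0 rose. The regulators of the transition had 0 calls of 14 (3 at an unadjusted p under 0.05), at a median of -0.13. Vim, the filament of mesenchymal cells, read 11.71, 11.43 and 7.64 in knockout and 8.66, 8.13 and 8.31 in rescue, so that 2 knockout arrays lay above and 1 below the rescue arrays (-1.89 ± 0.95, adjusted p = 0.32). Cdh1, the epithelial cadherin, differed by -0.20 ± 0.10 (adjusted p = 0.314). The list's median was -0.58, but -0.07 with knockout array 3 as the sole knockout array and -0.14 after adding the fibroblast mean as a covariate. With knockout array 3 alone Fn1 differed by -3.75 and Mmp14 by -1.41.

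Among enterocyte genes a homeobox factor, a sorting adaptor and lactase rose. Of 19 intestinal transcription factors 1 rose and 9 were separated upward, with a median of 0.34 (0.21 with knockout array 3 as the sole knockout array). Over all genes 1.24% rose and 10.6% were separated upward. Cdx1, a homeobox factor of intestinal identity, read 7.05, 6.44 and 6.78 in knockout and 7.93, 7.52 and 8.14 in rescue (2.15-fold, adjusted p = 0.0297, and 0.103 without rescue array 3). Its paralogue Cdx2 read 10.80, 10.81 and 10.46 against 11.24, 11.04 and 11.46 (0.55 ± 0.14, adjusted p = 0.0813), and Prdm1, which keeps the suckling state of enterocytes, 8.55, 7.96 and 8.71 against 9.01, 9.57 and 10.07 (1.14 ± 0.28, adjusted p = 0.0779). In the list of suckling enterocytes 1 of 14 genes rose and 2 fell, against 1.24% and 1.07% of all genes. A higher mean in rescue was found in 10 of the 14, and the list's median was 0.44. Of the 14 genes 5 were separated upward and 2 downward, against 10.6% and 7.5% of all genes. At an unadjusted p under 0.05, 7 were higher and 2 lower. Ap1m2, the epithelial clathrin adaptor for basolateral sorting, rose 1.76-fold, from 9.94, 10.14 and 10.29 to 10.92, 10.85 and 11.06 (adjusted p = 0.0132). Arginase Arg2 fell at least 4.64-fold (adjusted p = 0.0348), Clu is the other, and Arg2 reached 0.125 without rescue array 3. Of 23 brush border genes lactase, Lct, rose 1.75-fold, from 12.68, 12.23 and 12.73 to 13.41, 13.33 and 13.32 (adjusted p = 0.027, and 0.0945 without rescue array 3). The 11 general enterocyte markers had Lct as the single call and a median of 0.04. Their per-array medians lay around the control mean in both groups, -0.10 to 0.12 in knockout and -0.04 to 0.04 in rescue.

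Bile acid genes moved in opposite directions. Slc10a2, the ileal bile acid importer, read 5.90, 6.04 and 5.75 in knockout and 4.75, 3.93 and 3.64 in rescue (at least 3.46-fold lower, adjusted p = 0.0157). Nr1h4, the bile acid receptor FXR, read 10.11, 10.12 and 10.27 against 11.45, 10.92 and 10.82 (1.86-fold higher, adjusted p = 0.0313). The other 7 measured genes of the list did not pass, and both calls were lost in some leave-one-out fits (adjusted p up to 0.0835).

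Secretory and antimicrobial genes were lower in rescue in their called members, with a single exception. Of 18 Paneth cell and antimicrobial genes 6 fell and 1 rose, at a median of -0.62. Among all genes 1.07% fell and 1.24% rose. With knockout array 3 as the sole knockout array the median was -0.18, and it was -0.38 after adding the fibroblast mean as a covariate; 6 genes were lower in each. Lyz1 and Lyz2, the lysozymes, fell 5.90-fold and 3.74-fold, with the caution given above, Lyz2 from 9.53, 9.32 and 8.71 to 7.65, 6.95 and 7.26 (adjusted p = 0.00943). Ltf, Mmp7 and the calprotectin pair S100a8 and S100a9 (at least 5.37-fold and 4.29-fold) were the other falls, and Itln1 the rise. S100a8 and S100a9 are also made by neutrophils; of 17 leukocyte genes these were the 2 calls, 13 had a lower mean in rescue, 4 were separated downward and 7 were lower at an unadjusted p under 0.05, at a median of -0.43. Ptprc, the leukocyte surface antigen CD45, read 7.41, 7.27 and 5.75 in knockout and 4.84, 5.55 and 5.75 in rescue (-1.43, adjusted p = 0.154), and its direction turned without cross-matching probe sets (0.10). The part of such cells in these values was not tested. Beyond the lysozymes, Ltf and Mmp7, the calls of this group were lost in some leave-one-out fits (adjusted p up to 0.099). Enteroendocrine genes had 4 of 27 lower and 0 higher, 11 separated downward and a median of -0.61. Among all genes 1.07% were called lower and 7.5% were separated downward. Cpe, the carboxypeptidase that trims prohormones, read 12.16, 11.99 and 12.49 in knockout and 10.71, 10.31 and 9.66 in rescue (3.96-fold lower, adjusted p = 0.00913), with -0.19 on its other probe set. Ghrelin, Ghrl, fell 2.06-fold, from 9.27, 8.91 and 9.40 to 8.40, 7.92 and 8.13 (adjusted p = 0.0322), somatostatin, Sst, 1.77-fold (adjusted p = 0.0498) and the chaperone Scg5 at least 2.82-fold (adjusted p = 0.0441). The transcription factors of the lineage had 0 calls of 9 (1 at an unadjusted p under 0.05). Cpe alone passed in every leave-one-out fit, and Scg5 reached 0.144 without rescue array 3. Goblet cell genes had 0 calls of 22 (4 at an unadjusted p under 0.05) at a median of 0.08. Muc2, the main gel-forming mucin, read 11.41, 11.47 and 12.09 in knockout and 12.36, 12.39 and 12.75 in rescue, with no overlap (0.84 ± 0.32, adjusted p = 0.211). Of 6 goblet markers 5 had a higher mean in rescue, at a median of 0.25. Zg16, the sixth and a lectin of mucus granules, read 12.80, 12.89 and 13.59 in knockout and 11.68, 12.32 and 12.79 in rescue (-0.83 ± 0.32, adjusted p = 0.217), and rescue stayed 2.82 above the control arrays (adjusted p = 0.0347).

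Stem cell and Wnt genes had 1 of 31 higher and 1 lower, where 1.24% and 1.07% of all genes were. Plagl2, a zinc finger factor that promotes stem cell identity in the intestine, read 8.95, 9.32 and 9.52 in knockout and 10.01, 10.34 and 10.46 in rescue, near control at 10.58 to 10.76 (1.01 ± 0.17, 2.01-fold, adjusted p = 0.0261, and 0.101 without rescue array 3). The kinase Cdk6 fell 2.39-fold (adjusted p = 0.0357); it passed in 1 of 9 leave-one-out fits (adjusted p up to 0.0922). Lgr5, the marker of crypt stem cells, read 7.43, 7.46 and 6.23 in knockout and 7.17, 6.34 and 7.73 in rescue, with overlapping groups (0.04 ± 0.43, adjusted p = 0.971).

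Genes of the p53 response were lower in rescue. Of 27 genes 7 fell and 0 rose, 10 were separated downward and the median was -0.39. All calls were among the 21 targets and 0 of 6 among the apoptosis regulators (2 at an unadjusted p under 0.05). Over all genes 1.07% fell and 7.5% were separated downward. Cdkn1a, the inhibitor of cyclin-dependent kinases, read 12.26, 12.22 and 11.79 in knockout and 11.20, 10.72 and 10.45 in rescue, against 9.45 to 10.02 in control (2.46-fold lower, adjusted p = 0.0301). Mdm2, the ligase that degrades p53, fell 1.68-fold on its brightest probe set (adjusted p = 0.0249), with -0.68 and 0.09 on the others. Phlda3, a repressor of AKT, fell 2.67-fold, the kinase Plk2 2.33-fold and the epoxide hydrolase Ephx1 at least 3.53-fold. None of the 7 passed in every leave-one-out fit or with the 6 compared arrays (adjusted p from 0.108). The list's per-array medians overlapped between the groups, at 0.468 to 0.601 in knockout and 0.071 to 0.474 in rescue.

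In growth factor signalling 2 of 13 feedback genes fell, where 1.07% of all genes did. Phlda1 read 10.39, 10.31 and 10.57 in knockout and 8.94, 9.41 and 9.04 in rescue (2.45-fold lower, adjusted p = 0.00712), and it stayed above control by 1.41 (adjusted p = 0.0283). Ier3 fell 1.62-fold (adjusted p = 0.0447, and 0.149 without rescue array 3). These were the calls among 25 genes of EGF ligands, ErbB receptors and ERK feedback, and the 5 receptors had 0, also at an unadjusted p under 0.05. The median of the 25 genes was -0.54. It was -0.15 with knockout array 3 as the sole knockout array and -0.21 after adding the fibroblast mean as a covariate. The ligands Ereg (-1.23, adjusted p = 0.0801) and Hbegf (-1.24, adjusted p = 0.0996) had lower means that did not pass. In the TGF-beta and activin family 2 of 33 genes rose and 0 fell: Acvr1c, described above, and Bmp7, a ligand of the BMP branch, at 7.59, 6.98 and 7.70 in knockout and 9.10, 8.81 and 8.92 in rescue (2.87-fold, adjusted p = 0.00993). Its 3 probe sets rose by 1.06 to 1.52, and both genes passed in every leave-one-out fit. Over all genes 1.24% rose and 1.07% fell. Other members of the family went the other way, and the list's median was -0.03. Of the 33 genes 7 were separated downward and 2 upward, against 7.5% and 10.6% of all genes. At an unadjusted p under 0.05, 7 were lower and 2 higher. Of the 8 ligands 7 had a lower mean in rescue.

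Detoxifying and stress lists differed in how many genes were called. Of 24 xenobiotic enzymes 3 fell and 1 rose, against 1.07% and 1.24% of all genes. At an unadjusted p under 0.05 were 13 of the 24, 7 lower and 6 higher, against 18.9% of all genes. The cytochrome Cyp2c55 fell 3.36-fold, from 8.50, 8.53 and 7.87 to 6.60, 6.76 and 6.30 (adjusted p = 0.00569). Ephx1 and the transferase Gsta4 were the other falls, and the carboxylesterase Ces1f rose at least 2.49-fold. In the integrated stress response 2 of 36 fell, the lipoprotein receptor Vldlr (2.71-fold, adjusted p = 0.0113) and the glycyl-tRNA synthetase Gars (1.57-fold, adjusted p = 0.0211), and both were lost in some leave-one-out fits (adjusted p up to 0.0881). The list as a whole was not lower: 25 of the 36 had a higher mean in rescue, at a median of 0.19. Separated upward were 4 and downward 4. Of the 12 tRNA synthetases 11 had a higher mean, and Gars was the exception. The unfolded protein response (24 genes), antioxidant and ferroptosis defence (26), lysosome (18), chylomicron assembly (27), tight junctions (18), Hedgehog (13) and the interferon response (24) had 0 calls each by limma. They held 8, 5, 4, 2, 4, 5 and 1 genes at an unadjusted p under 0.05, against 3327 of all genes (18.9%). Among lists with a single call or a pair, the elongase Elovl6 rose 1.82-fold in the synthesis of cholesterol and fatty acids (29 genes, adjusted p = 0.00923). The zinc importer Slc39a5 rose by 0.99 and the metallothionein Mt4 fell by 0.82 (adjusted p = 0.0121 and 0.0392, 14 genes). Periplakin, Ppl, fell 2.02-fold among 18 genes of desmosomes and cadherins, and Notch2 2.06-fold among 17 of the Notch pathway. Slc39a5, Mt4, Notch2, Gsta4 and Ces1f were lost in some leave-one-out fits (adjusted p up to 0.139, for Mt4). The chemokine Cxcl2, at least 2.38-fold lower, and the acute phase protein Saa3, 2.89-fold lower, were the calls among 28 inflammatory genes. Psca, a surface protein of the stomach lining, fell by 1.24 among 15 gastric genes (adjusted p = 0.00226), beside Anxa10.

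Cell cycle and ribosome genes depended on which knockout array was read. The 39 genes of DNA replication and mitosis had 0 calls by limma (1 at an unadjusted p under 0.05) and a median of 0.23, with per-array medians of 0.53, 0.74 and -0.39 in knockout and 0.36, -0.09 and 1.05 in rescue. The change was -0.17 without knockout array 3 and 0.96 with it as the sole knockout array. Ribosome biogenesis (25 genes, 0 calls, 1 at an unadjusted p under 0.05) gave 0.22, and -0.12 and 0.92 in the same settings.

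Markers of other cells of the gut wall had lower means in rescue through 2 of the 3 knockout arrays. All 18 fibroblast genes had a lower mean and 0 passed by limma (8 at an unadjusted p under 0.05), at a median of -1.65. Smooth muscle markers gave -1.29 (12 genes), neurons and glia -0.97 (11) and endothelium -0.77 (13), with 0 calls and 5, 3 and 4 genes at an unadjusted p under 0.05. Per-array smooth muscle medians were 2.90, 1.53 and 0.14 in knockout and 0.42, 0.26 and 0.21 in rescue. Without knockout array 3 the fibroblast median was -2.78 and 18 of 18 genes fell; with that array alone it was 0.42 and 0 passed. Of 7 mesothelial genes Lrrn4 fell (at least 3.51-fold, adjusted p = 0.0357, and 0.11 without rescue array 2). Pancreas genes stood out in knockout array 2 (2.17 above control) and rescue array 3 (1.47). The part of such cells in the results for matrix genes was not tested beyond the values with knockout array 3 and with the fibroblast mean given beside them. Those settings are not separate checks, since the fibroblast mean mostly sets the other knockout arrays apart from array 3.

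**Figure D5:**
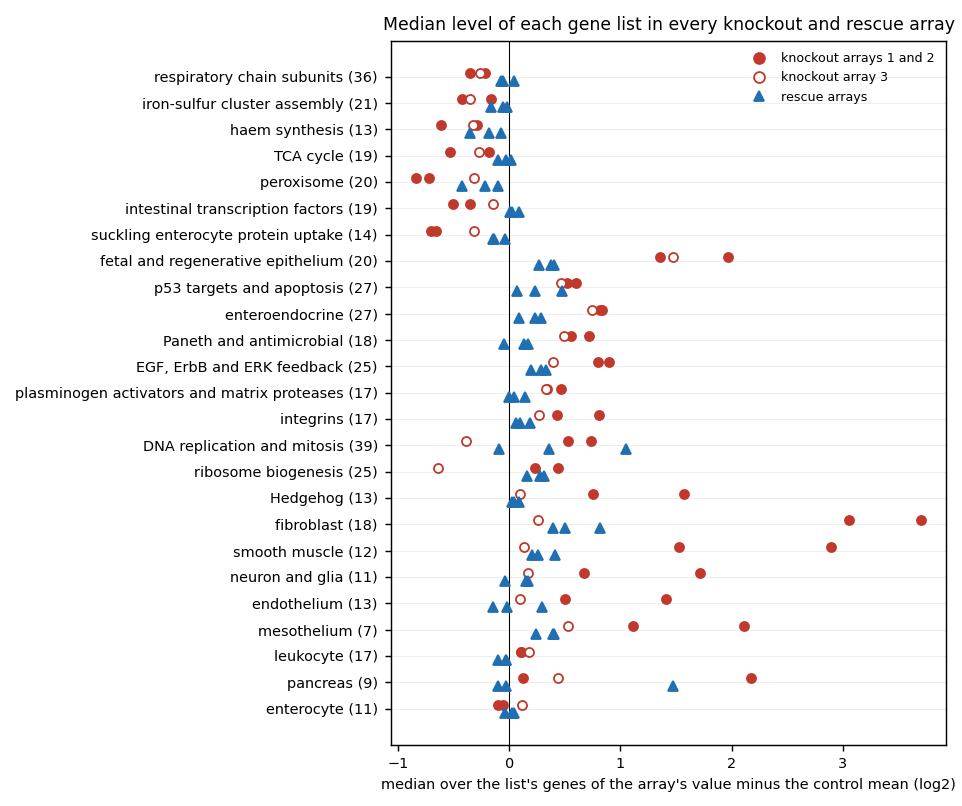
Median over each gene list of an array's value minus the control mean (log2, horizontal axis), for the 3 knockout arrays (circles, array 3 open) and the 3 rescue arrays (triangles), with the number of genes in brackets. The fetal list lies at 1.36 to 1.97 in all knockout arrays, while fibroblast markers lie at 3.70 and 3.06 in knockout arrays 1 and 2 and at 0.26 in array 3.

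Set against control, rescue cells differed in 19 of the 17567 genes (0.108%), 7 higher and 12 lower, and knockout cells in 2490 (14.2%). These comparisons share arrays with the one above, so the values are given side by side only. Control arrays were like knockout arrays in sex-specific transcripts, so sex and genotype cannot be told apart between rescue and control either. Fn1 was 3.78 above control in knockout and 0.57 in rescue, Angptl4 3.66 and -0.27, Sapcd2 -3.81 and -1.18, and Plagl2 -1.40 and -0.39. Other genes differed from control in rescue as well, among them Vldlr, 1.40 above control (adjusted p = 0.0492), while Anxa10 lay 3.02 above it and did not pass (adjusted p = 0.092). A p that misses the threshold does not show that rescue and control are alike. The test shares its spread with the knockout group, whose median SD was 0.225 against 0.104 in control and 0.140 in rescue. At an unadjusted p of 0.05, 1162 of the 17567 genes passed between rescue and control, a count that includes genes passing by chance.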

How the data were processed

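RNA of 9 samples had been hybridised to Affymetrix mouse arrays. Per the submitters' processing notes, the authors used Partek 6.5 and RMA, and what the authors deposited are RMA values on the log2 scale, 1 per probe set. Scanner signals were not used here, and the number of arrays limits the precision. Of 45101 probe sets 34958 carried 1 gene symbol, and without 13 array controls 34945 were used. Each of the 18193 genes was represented by its brightest probe set, so 17567 genes lay off X and Y.

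Group means of all 9 arrays were fitted with limma 3.58.1 (R 4.3.3, lmFit and eBayes, two-sided tests), with Benjamini-Hochberg adjustment across all genes and a threshold of 0.05. The fit was tested on simulated data. A fold is a lower bound where the lower mean is among the dimmest 40% of that group's genes. Named were Tfrc, Plagl2, Lgr5, Vim, Cdh1, Fn1 and Angptl4, the 12 largest called rises and falls, and up to 5 genes of smallest p per list. Members and lists were chosen with earlier results of these data known. Promoters came from RefSeq (GRCm38.p6). Alternatives covered arrays, weights, normalization, probe sets, filters, a replicate block and a fibroblast covariate.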

Additional observations from a re-analysis of the deposited data

How the results depend on the processing

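The 406 genes called between rescue and knockout (218 higher, 188 lower) were 25 (5 and 20) with the 6 compared arrays alone, 2358 (1046 and 1312) with array weights, 924 (514 and 410) after adding the fibroblast mean as a covariate and 1049 (559 and 490) with knockout array 3 as the sole knockout array, which was assumed to vary like the other groups. With array weights shared within each group, chosen after seeing the data, they were 128 (57 and 71). Leaving out 1 array gave 99 to 2688 (42 to 1171 higher and 57 to 1517 lower). All 406 kept their direction in each setting, except 5 of the 364 that could be measured without cross-matching probe sets. The replicate numbers gave no consistent pairing, since same-numbered knockout and rescue arrays correlated at 0.40, -0.10 and -0.07 in their deviations. Knockout array 2 correlated with rescue array 3 at 0.37 and knockout array 3 with rescue array 2 at 0.27, and the remaining pairs were negative. What such pairs share was not tested, and the main fit does not model them. With a replicate block 244 genes passed (145 and 99), 217 of them among the 406. Of 57 list medians 38 kept their sign with knockout array 3 alone, 42 with the fibroblast covariate and 51 with array weights. Among the named genes, none of whose reversals touched a called gene other than Mdm2 (0.086 without cross-matching probe sets), the direction turned as follows. Ptprc was at 0.10 without cross-matching probe sets. With array weights Lgr5 was at -0.42 and the brightest Tfrc probe set at -0.30. Vim was at 0.29 with the fibroblast covariate and at 0.73 with knockout array 3 alone, Slc40a1 at -0.037 and -0.076 and Fth1 at -0.040 and -0.097 in the same settings, and Fth1 at -0.019 with probe sets averaged. Leave-one-out ranges that cross 0 were -0.046 to 0.087 for Fth1, -0.36 to 0.41 for Lgr5, -0.34 to 0.22 for Slc11a2 and -0.21 to 0.83 for the brightest Tfrc probe set.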

Other observations

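The genes named here were chosen after their values were seen, so they are a description. Several enzymes of amino acid breakdown and the urea cycle were higher in rescue epithelium. Pipox, which oxidises sarcosine in peroxisomes, read 8.55, 8.43 and 8.35 in knockout and 9.90, 9.57 and 9.74 in rescue arrays (2.45-fold, limma's adjusted p = 0.00241), with control at 9.91 to 10.15. Cps1 and Asl of the urea cycle rose 1.67-fold and 1.93-fold, and Oat, Prodh2 and Dao, enzymes of ornithine, hydroxyproline and D-amino acids, rose by 0.52, 1.42 and 0.75. Arginase Arg2, described above, went the other way, with a change of -2.21 (adjusted p = 0.0348). The folate receptor Folr1 rose 2.99-fold and Mamdc4, a protein of endocytic vesicles in suckling enterocytes, 2.48-fold, from 12.04, 12.07 and 12.43 to 13.35, 13.67 and 13.44. Pipox and Mamdc4 passed in every leave-one-out fit; Cps1, Asl, Oat, Prodh2, Dao and Folr1 did not, with an adjusted p of up to 0.162 (Prodh2, without rescue array 3).

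A few genes known from meiosis and the germline were also higher in rescue. Sycp3, a protein of the synaptonemal complex, read 7.34, 7.44 and 7.70 in knockout and 9.21, 9.12 and 8.60 in rescue, against 8.95 to 9.29 in control (2.80-fold, adjusted p = 0.00828). Tex12, another protein of that complex, rose at least 3.34-fold and the piRNA-pathway gene Piwil2 at least 2.15-fold (adjusted p = 0.0393 and 0.0357). Sycp3 passed in every leave-one-out fit, Tex12 in 1 and Piwil2 in 3 of the 9 (adjusted p up to 0.123 and 0.124, both without rescue array 3). Rescue arrays differ from knockout arrays in sex-specific transcripts too, and the part of sex in these values was not tested.

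Some actin-binding and heat-shock genes were lower in rescue. S100a6, a calcium-binding protein, read 12.12, 12.39 and 12.23 in knockout and 10.78, 10.46 and 10.52 in rescue (3.16-fold, adjusted p = 0.00167), and it stayed 0.96 above control (adjusted p = 0.0492). The actin-severing Gsn fell 2.04-fold and Capg 2.93-fold, and both passed in every leave-one-out fit. The chaperone genes Hspa1b, Hspa2 and Bag3 fell 1.95-fold, at least 2.08-fold and 2.42-fold; Hspa1b and Bag3 passed in 1 of 9 leave-one-out fits each (adjusted p up to 0.114 and 0.164). Dusp1, a phosphatase that ends MAP kinase signals, fell 3.70-fold (adjusted p = 0.00569), and Hpgd, which degrades prostaglandins, 4.41-fold (adjusted p = 0.0052).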
